A study of Mus musculus with 6 samples.

Results

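Gastric hormones and the secretory granule genes of enteroendocrine cells were followed in 6 RNA libraries of sorted mouse stomach parietal cells. The 10 genes were taken by symbol from the deposited table of 23284 genes, and all 10 were found: the hormones Ghrl, Gast and Sst, the granule proteins Chga, Chgb and Scg2, the amine genes Hdc, Tph1 and Slc18a2, and the transcription factor Neurod1. The libraries form 2 groups of 3 biological replicates. Controls carry the label Transgenic-Tom and no noggin transgene is named for them. The noggin group carries the label Transgenic-Tom-nog, and the series describes mice that combine H+/K+-Cre with H+/K+-Nog and the reporter allele Rosa26-tdTom. The H+/K+ ATPase promoter of parietal cells drives both Cre and noggin, and Cre switches on the red tdTomato, by which the cells were sorted with flow cytometry. Whether 1 library is 1 mouse or a pool, and how old the mice were, is not stated in the labels. The p-values therefore measure the spread between libraries.

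Enteroendocrine cells are scattered hormone cells of the gastric gland. X/A-like cells make ghrelin, G cells of the antrum make gastrin, D cells make somatostatin and enterochromaffin-like cells make histamine, which stimulates parietal cells. Gastrin drives histamine release and somatostatin restrains both. Noggin is secreted and blocks bone morphogenetic proteins (BMPs), so a parietal cell that makes it can act on its neighbours as well as on itself.

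A known sequence element lies near the start of some of these genes, and is shown here as a description. The letters searched were chosen by hand, so the shares below are not a test of enrichment. The cyclic AMP response element, spelled TGACGTCA, lay within 250 bases before the RefSeq start of Sst, Chgb and Scg2, which is 3 of 10 members (30%) against 432 of the 27025 RefSeq genes with a window. The shorter TGACG, on either strand and counted also inside the full element, lay before Chga and Tph1 too, giving 5 of 10 (50%) against 17.8%. The letters CAGATG, an E-box of the kind that NEUROD1 binds, were in 0 of 10 windows on either strand against 14.5%. The most upstream RefSeq start was used for Ghrl and Tph1, which have 4 and 2. For Sst, Chgb and Scg2 the GENCODE M21 gene, whose coordinates are given with the levels, begins further upstream than the RefSeq start. All 3 elements therefore lie inside the GENCODE gene, and 114, 120 and 94 of the 120 bases before the RefSeq start are in annotated exons. Which start these cells use was not measured. In the 30 bases around each full element, read from RefSeq in GRCm38.p6 on the strand of the gene, capitals mark the element, which begins 48, 72 and 68 bases before the RefSeq start (chr16:23890844, chr2:132781642 and chr1:79440026) of Sst, Chgb and Scg2:
Sst, minus strand of chr16:23890874-23890903: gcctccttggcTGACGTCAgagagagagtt
Chgb, plus strand of chr2:132781559-132781588: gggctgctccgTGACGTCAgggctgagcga
Scg2, minus strand of chr1:79440076-79440105: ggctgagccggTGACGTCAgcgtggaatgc

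The 3 genes on which the expression results turn most are Ghrl, Chga and Gast, so the 120 bases before their RefSeq starts follow. Capitals mark TGACG, which in Chga begins 44 bases before that start, and neither Ghrl nor Gast holds it. A match is a description of the letters, and an absent match says nothing about the factor.
Ghrl, minus strand of chr6:113719912-113720031: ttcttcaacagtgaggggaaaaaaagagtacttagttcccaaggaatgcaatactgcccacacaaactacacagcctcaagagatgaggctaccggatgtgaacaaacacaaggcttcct
Chga, plus strand of chr12:102554821-102554940: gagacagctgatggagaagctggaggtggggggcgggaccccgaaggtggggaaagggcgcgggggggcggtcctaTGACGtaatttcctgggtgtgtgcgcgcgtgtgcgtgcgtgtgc
Gast, plus strand of chr11:100334287-100334406: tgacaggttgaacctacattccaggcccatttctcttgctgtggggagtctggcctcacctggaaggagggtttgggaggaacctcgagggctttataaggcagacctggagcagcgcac

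Levels are FPKM, which correct the reads of a gene for its length and for the size of the library, so genes can be compared with each other. The depth behind them is unknown. Total FPKM ran from 595736 to 669124 in controls and from 797168 to 1188186 in noggin libraries. Noggin replicate 3 stood apart, with 542 of the 10644 tested genes listed at 0 against 19 to 34 in each other library. Nog was at 0.871 to 1.97 FPKM in controls and 2281 to 2734 in noggin libraries, which fits the labels. Parietal transcripts were abundant everywhere, though Atp4a was lower in every noggin library (5433 to 7619 FPKM) than in every control (13385 to 16218 FPKM).

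Ghrl and Chga rose in noggin libraries, 18.15-fold and 8.07-fold by the ratio of group means. Of the other 8 members 7 were not called and 1 was not tested, and each had a higher mean in noggin libraries, by 3.20-fold for Tph1 to 14.5-fold for Gast. The test was limma on log2(FPKM + 1) over genes that reached 1 FPKM in 3 or more libraries. A log2 difference below is noggin minus control on that scale, which understates the change of low genes, and called means an adjusted p under 0.05. Of the members, 9 could be tested and Neurod1 fell under the filter. Of all tested genes, 1.75% were called higher (186) and 0.695% lower (74), and among the members 2 and 0. At an unadjusted limma p under 0.05, 1677 of all 10644 tested genes were higher and 1162 lower, and among the 9 tested members 4 and 0.

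To include all 10 members, the same was read without the filter, over 19818 genes above 0 in some library. All 10 log2 differences were then positive, with a median of 1.77 beside 0.02 over all these genes. In 4 members, Ghrl, Chga, Hdc and Slc18a2, every noggin library lay above every control, as in 13.0% of all these genes. The adjusted p of Ghrl and Chga became 0.0758 and 0.106 in this larger table, in which limma called 8 genes higher and 4 lower and 0 of 10 members (4 at an unadjusted p under 0.05, all higher). Of all 19818 genes, 1863 were higher and 1396 lower at that unadjusted p. In sorted bulk libraries more cells of a type and more RNA per cell cannot be told apart.

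Ghrl (chromosome 6, 113716119 to 113719880 in mm10) encodes the precursor of ghrelin, the hunger hormone of the stomach. It was at 99.5, 128 and 171 FPKM across control replicates 1 to 3, and at 1414, 1358 and 4464 FPKM across noggin replicates 1 to 3. The lowest noggin library was far above the highest control, and noggin replicate 3 stood above the other noggin libraries. The log2 difference was 3.97 with an SE of 0.470 (limma adjusted p = 0.0159). By level Ghrl ranked 493rd to 844th of all genes in controls and 18th to 110th in noggin libraries. The call was lost without control replicate 1 (3.78, adjusted p = 0.0966) or 3 (4.17, adjusted p = 0.0544), and after removal of the transcript length trend (2.99, adjusted p = 0.0583). Ghrl overlaps the annotated genes Gm26982 and Gm44033 on the opposite strand, and its reads cannot be told from theirs if strand was not kept.

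Gast (chromosome 11, 100334407 to 100336996), the gastrin gene, was at 203, 387 and 2226 FPKM across control replicates 1 to 3. In noggin replicates 1, 2 and 3 it was at 22.3, 26026 and 14693 FPKM. Noggin replicate 1 was thus the lowest of all 6 libraries, and the other noggin libraries were above every control. Gast ranked 3rd and 6th of 23284 genes by level in noggin replicates 2 and 3, 3328th in noggin replicate 1 and 20th in control replicate 3. The log2 difference was 1.89 with an SE of 2.467 (limma adjusted p = 0.644). It was 5.13 without noggin replicate 1 (adjusted p = 0.0713), 0.06 without noggin replicate 2 (adjusted p = 0.989) and 0.48 without noggin replicate 3 (adjusted p = 0.915). With the length correction it was 0.93, and after rescaling to the same total 1.18. Pdx1, a transcription factor of the antrum and duodenum, is given beside Gast: it was at 2.46, 1.85 and 0 FPKM across noggin replicates 1 to 3 and at 0.663 to 1.37 FPKM in controls.

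Sst (chromosome 16, 23889573 to 23890958) encodes somatostatin, which inhibits gastrin, histamine and acid release. Its level was 61.2, 42.9 and 54.1 FPKM across control replicates 1 to 3, and 18.3, 127 and 671 FPKM across noggin replicates 1 to 3. The controls were close together while the noggin libraries lay on both sides of them. The log2 difference of 1.15 (SE 1.085, limma adjusted p = 0.514) turned to -0.10 without noggin replicate 3. It was 0.37 with the length correction and 0.45 after rescaling to the same total.

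**Figure D1:**
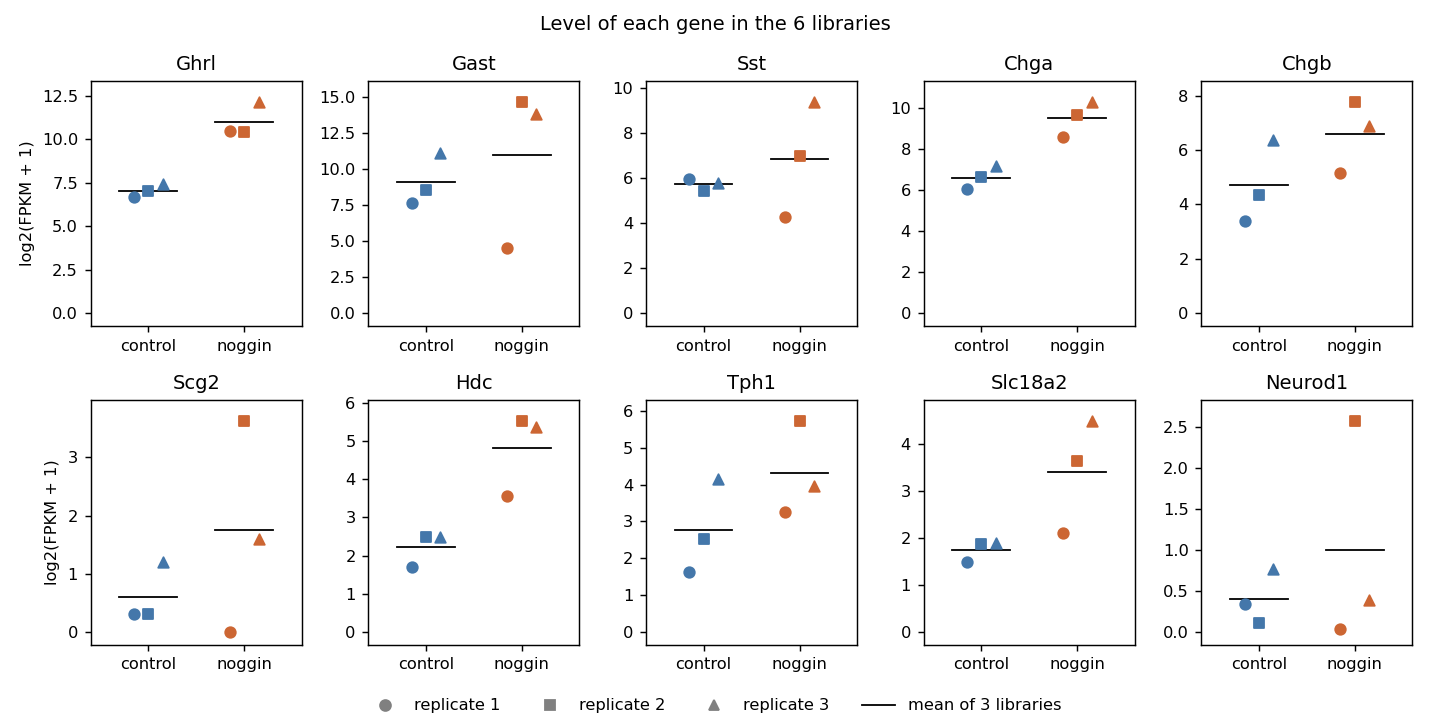
Level of the 10 genes as log2(FPKM + 1) in each library; symbols give the replicate number, blue is control, orange is noggin and lines are means of 3 libraries. The groups do not overlap for Ghrl, Chga, Hdc and Slc18a2, and noggin replicate 1 is the lowest noggin library for every gene but Ghrl.

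Chga (chromosome 12, 102554969 to 102565028) encodes chromogranin A, an acidic protein that packs hormones into dense granules in most endocrine cells. It was at 65.6, 98.5 and 142 FPKM across control replicates 1 to 3 and at 393, 819.6 and 1259 FPKM across noggin replicates 1 to 3. All noggin libraries lay above all controls. The log2 difference was 2.91 with an SE of 0.451 (limma adjusted p = 0.0312). It was 2.63, 2.92 and 3.19 without control replicate 1, 2 or 3, with the call lost each time (adjusted p = 0.157, 0.103 and 0.0972).

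Chgb (chromosome 2, 132781278 to 132795079), chromogranin B, was at 9.49, 19.4 and 80.9 FPKM across control replicates 1 to 3. In noggin replicates 1, 2 and 3 it was at 34.5, 216 and 117 FPKM. The groups overlapped because control replicate 3 exceeded noggin replicate 1, and the log2 difference of 1.90 (SE 0.855) did not pass (limma adjusted p = 0.201). Scg2 (chromosome 1, 79434669 to 79440120), secretogranin II of the same granin family, was low: 0.235, 0.243 and 1.29 FPKM across control replicates 1 to 3 against 0, 11.4 and 2.03 FPKM across noggin replicates 1 to 3. Its log2 difference was 1.14 (SE 0.831, limma adjusted p = 0.400), and it passed the filter through 1 control and 2 noggin libraries.

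Hdc (chromosome 2, 126593667 to 126619299) encodes histidine decarboxylase, the enzyme that makes histamine. Its level was 2.23, 4.56 and 4.58 FPKM across control replicates 1 to 3 and 10.8, 45.4 and 40.2 FPKM across noggin replicates 1 to 3. Every noggin library was above every control, and the log2 difference of 2.61 (SE 0.545) just missed the threshold (limma adjusted p = 0.0560). It was called without noggin replicate 1 (3.24, adjusted p = 0.0313) or 2 (2.25, adjusted p = 0.0488) and with quantile normalization (2.70, adjusted p = 0.0283). Of 15 alternatives 5 called it. Without control replicate 1, 2 or 3 it was not called (limma adjusted p = 0.238, 0.188 and 0.229), nor without the filter (limma adjusted p = 0.140).

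Slc18a2 (chromosome 19, 59260896 to 59296012), the vesicular monoamine transporter VMAT2 that loads histamine into granules, was at 1.80, 2.65 and 2.72 FPKM across control replicates 1 to 3. In noggin replicates 1, 2 and 3 it was at 3.295, 11.4 and 21.5 FPKM. The groups did not overlap, but the log2 difference of 1.66 (SE 0.580) did not pass (limma adjusted p = 0.131). Tph1 (chromosome 7, 46644641 to 46672537), the tryptophan hydroxylase of serotonin synthesis, was at 2.07, 4.72 and 16.9 FPKM across control replicates 1 to 3 and at 8.58, 52.5 and 14.6 FPKM across noggin replicates 1 to 3. Control replicate 3 exceeded 2 of the 3 noggin libraries, and the log2 difference was 1.56 (SE 0.791, limma adjusted p = 0.244). Slc18a2 overlaps the antisense gene Gm29261.

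Mast cells also use Hdc, Tph1 and Slc18a2, so a list of 12 mast cell markers is given beside them. Of its 8 tested genes 6 rose (Tpsab1, Tpsb2, Mcpt1, Mcpt2, Cma1 and Cpa3), Kit fell, and Fcer1a did not pass. Without the filter only Tpsab1 and Tpsb2 of the 12 were called by limma, and with the length correction Mcpt1 was lost (adjusted p = 0.0547). The summed level of the list was 40.4 to 65.7 FPKM in controls, mostly Kit at 32.4 to 43.2 FPKM, and 275 to 393 FPKM in noggin libraries. Tpsab1, a tryptase, was at 2.15 to 3.91 FPKM in controls and at 106, 119 and 73.8 FPKM across noggin replicates 1 to 3. The mast cell sum was highest in noggin replicate 1 (393, against 306 and 275 in replicates 2 and 3), while Hdc, Tph1 and Slc18a2 were each lowest there among the noggin libraries. Single markers differed in order. Mcpt1, Mcpt2, Mcpt4, Cma1, Tpsb2, Ms4a2 and Fcer1a were highest in noggin replicate 1. Tpsab1 and Kit were highest in noggin replicate 2, and Cpa3, Gata2 and Hpgds in noggin replicate 3. Mcpt4 and Ms4a2 were listed at 0 in noggin replicate 3. The part of mast cell RNA in the levels of the 3 amine genes was not tested.

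**Figure D2:**
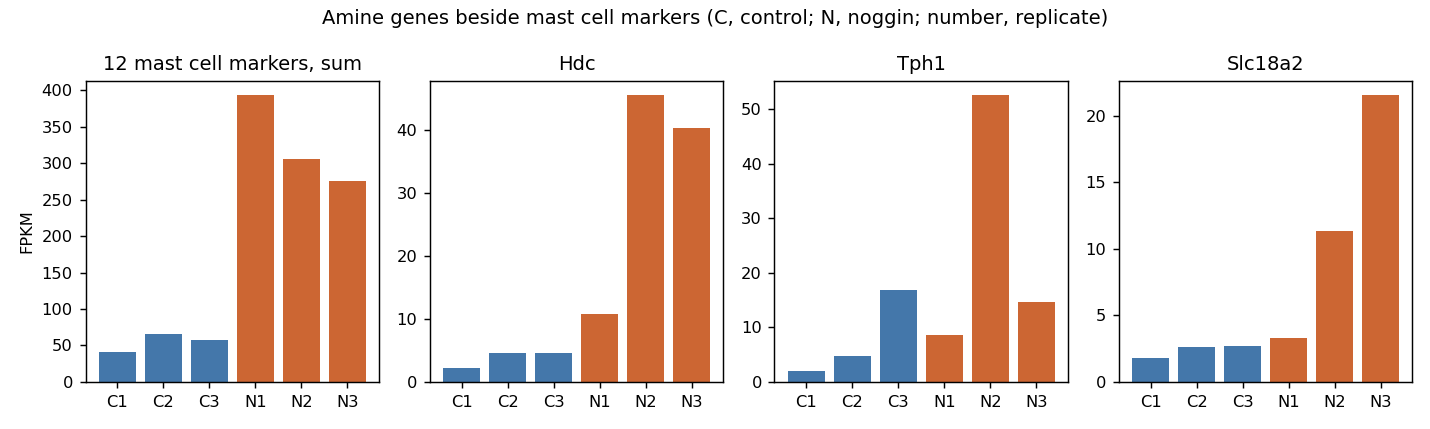
Bars give FPKM in each library (C1 to C3 control, N1 to N3 noggin) for the sum of 12 mast cell markers and for Hdc, Tph1 and Slc18a2, with a scale of its own in each panel. The marker sum is highest in N1 at 393 FPKM, though single markers peak in different noggin libraries. Hdc is 10.8 FPKM in N1 and 45.4 and 40.2 FPKM in N2 and N3.

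Neurod1 (chromosome 2, 79452521 to 79456751), a basic helix-loop-helix factor of endocrine differentiation, had the lowest mean of the 10 genes in both groups, though Scg2 was below it in control replicate 1 and noggin replicate 1. It was at 0.266, 0.0806 and 0.701 FPKM across control replicates 1 to 3 and at 0.0261, 4.97 and 0.309 FPKM across noggin replicates 1 to 3. Only noggin replicate 2 reached 1 FPKM, so the gene was not tested in the filtered table. Without the filter its log2 difference was 0.59 (SE 0.682, limma adjusted p = 0.657). It overlaps Cerkl on the same strand, which was at 0 to 1.15 FPKM.

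The members kept nearly the same order by mean level in both groups: Gast, Ghrl, Chga, Sst and Chgb at places 1 to 5, then Tph1 and Hdc, then Slc18a2, Scg2 and Neurod1. Single libraries departed from this order of means. In noggin replicate 1 Gast (22.3 FPKM) was below Ghrl (1414 FPKM), Chga (393 FPKM) and Chgb (34.55 FPKM). By mean Tph1 was above Hdc in controls and below it in noggin libraries. The reverse held in control replicate 1 (Tph1 at 2.07 and Hdc at 2.23 FPKM) and noggin replicate 2 (Tph1 at 52.5 and Hdc at 45.4 FPKM). Within the controls their SDs reach over the gap between Tph1 (7.89 ± 7.89 FPKM) and Hdc (3.79 ± 1.35 FPKM, SD, n = 3), as they do in noggin libraries (25.2 ± 23.8 and 32.2 ± 18.7 FPKM). Chga (102 ± 38.4 FPKM) and Ghrl (133 ± 36.0 FPKM) were also within each other's spread in controls. Within each control library, though, Ghrl was above Chga (1.52, 1.30 and 1.20 times in replicates 1, 2 and 3).

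The spread within a group differed widely between members. Noggin libraries differed 1166-fold in Gast, 190-fold in Neurod1 and 36.7-fold in Sst, but 3.29-fold in Ghrl and 3.21-fold in Chga. Scg2, listed at 0 in noggin replicate 1, has no such ratio there. The lowest Neurod1 values, 0.0261 FPKM in noggin libraries and 0.0806 FPKM in controls, were far under the 1 FPKM of the filter. Controls differed 10.97-fold in Gast, 8.70-fold in Neurod1, 8.53-fold in Chgb and 8.14-fold in Tph1, and 1.43-fold in Sst. Single libraries carried much of this: control replicate 3 was the highest control for 9 of 10 members (all but Sst), and noggin replicate 1 was the lowest noggin library for 9 of 10 (all but Ghrl). Gast, Chgb, Scg2, Hdc, Tph1 and Neurod1 peaked in noggin replicate 2, and Ghrl, Sst, Chga and Slc18a2 in noggin replicate 3.

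Ratios to Chga within a library do not depend on how the library is scaled, but a trend with transcript length does not cancel in them. Transcript lengths were 423.5 bases for Ghrl, 1883 for Chga and 3785 for Slc18a2. With the length correction the log2 differences of Ghrl, Chga and Slc18a2 were 2.99, 2.75 and 2.03, against 3.97, 2.91 and 1.66 without it. Ghrl stood at 1.52, 1.30 and 1.20 times the level of Chga in control replicates 1, 2 and 3, and at 3.60, 1.66 and 3.54 times in noggin replicates 1, 2 and 3, with no overlap. The ratio of Hdc to Chga was 0.0340, 0.0463 and 0.0322 in controls and 0.0276, 0.0554 and 0.0320 in noggin libraries, so the groups covered nearly the same range. Slc18a2 was lower relative to Chga in every noggin library (0.00839 to 0.0171) than in every control (0.0191 to 0.0274), although its own level was higher. These ratios are given as values without a test.

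Gast gave the widest ratios. It stood at 3.09, 3.93 and 15.7 times the level of Chga in control replicates 1, 2 and 3, and at 0.0569, 31.8 and 11.7 times in noggin replicates 1, 2 and 3. Relative to Ghrl it was at 0.0158 in noggin replicate 1 and at 19.2 and 3.29 in replicates 2 and 3, against 2.04, 3.02 and 13.0 in the controls. The noggin libraries alone thus spanned the whole range of this ratio over the 6 libraries.

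**Figure D3:**
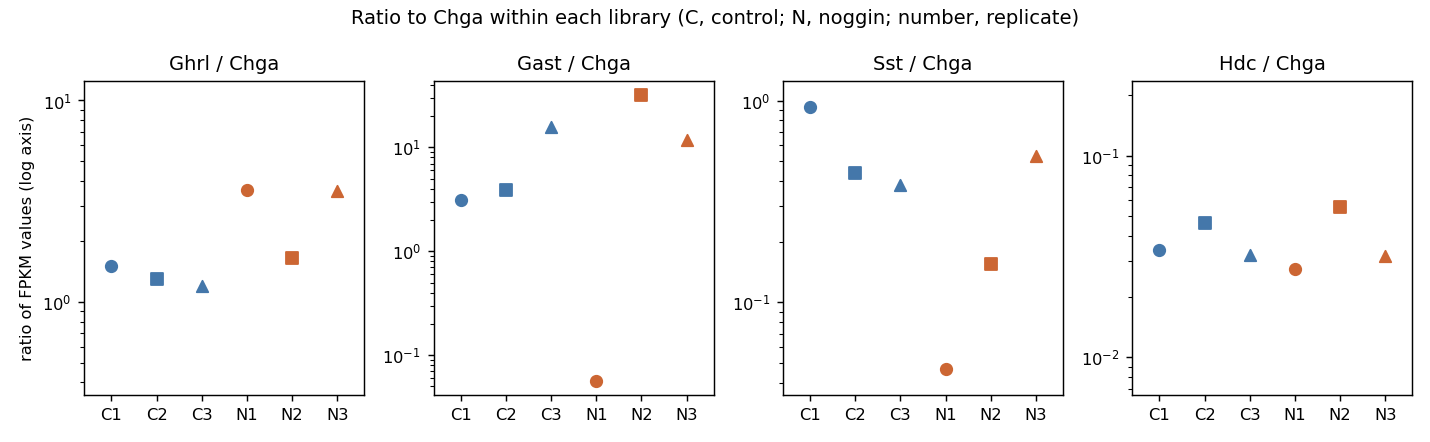
Ratio of the FPKM of Ghrl, Gast, Sst and Hdc to that of Chga in each library, on log axes of different range (C, control; N, noggin; the number is the replicate). Ghrl lies higher in all noggin libraries (1.66 to 3.60 against 1.20 to 1.52), Gast drops to 0.0569 in N1, and Hdc stays between 0.0276 and 0.0554.

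Across the 6 libraries the members fell along more than 1 pattern. The Pearson correlation of log2(FPKM + 1) was 0.97 between Ghrl and Chga, 0.97 between Chga and Hdc, 0.97 between Chgb and Tph1 and 0.95 between Scg2 and Neurod1. It was 0.39 between Ghrl and Gast and 0.24 between Ghrl and Neurod1. These describe 6 points that share library, total FPKM and group. Among 7306 tested genes whose mean reached 5 FPKM in a group, those most like Ghrl were Bin3 (0.9980), Slc12a8 (0.9970), Rnf113a2 (0.9940), Sumf2 (0.9918) and Rhbdl2 (0.9906). Those most like Gast were Copg (0.9908), Nars (0.9839), Prmt7 (0.9828), Myst1 (0.9821) and Stam (0.9702). The likeness is in shape and not in size: Bin3 ran only from 12.3 to 25.8 FPKM over the 6 libraries, and Copg from 40.9 to 65.0 FPKM.

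Other enteroendocrine genes were read from 3 companion lists of 54 genes, of which 21 could be tested. Limma called 0 of them in either direction, and 11 were higher and 1 lower at an unadjusted p under 0.05. Over all 10644 tested genes, 1677 were higher and 1162 lower at that unadjusted p. Over the 21 the log2 differences were positive for 18 and negative for 3, with a median of 1.26 beside -0.03 over all tested genes. Without the filter, 50 genes were above 0 somewhere, with a median of 0.39 beside 0.02, and 41 were positive. In 7 of these 50 all noggin libraries were above all controls, beside 13.0% of all genes.

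Of 15 other gut hormones and peptides 3 could be tested and limma called 0. At an unadjusted p under 0.05, 1 was higher, beside 1677 of all 10644 tested genes. Sct, the secretin gene, was at 0, 0.271 and 1.32 FPKM across control replicates 1 to 3 and at 1.09, 3.44 and 4.22 FPKM across noggin replicates 1 to 3 (log2 difference 1.35, SE 0.472, limma adjusted p = 0.132). Pyy, encoding peptide YY, and Nmb, encoding neuromedin B, had log2 differences of 0.10 (SE 0.897) and 0.35 (SE 0.523). Both were listed at 0 in noggin replicate 3, without which limma called Nmb higher (0.97, adjusted p = 0.0441). With the length correction the log2 differences of Sct, Pyy and Nmb were 0.42, -0.80 and -0.45. Cck, picked once its values were known, was at 23.1 FPKM in noggin replicate 2, at 0.303 to 2.74 FPKM in controls and at 0 in both other noggin libraries.

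Of 22 genes of granule content and prohormone processing 15 could be tested, with a median of 1.47, and 0 were called. At an unadjusted limma p under 0.05, 9 were higher and 1 lower, beside 1677 and 1162 of all 10644 tested genes. Resp18, an endocrine granule protein, was at 3.80, 9.40 and 29.3 FPKM across control replicates 1 to 3 and at 40.1, 241 and 147 FPKM across noggin replicates 1 to 3. Its groups did not overlap, and the log2 difference was 3.31 (SE 0.801, limma adjusted p = 0.0763). Scg5, the chaperone 7B2 of a prohormone convertase, had a log2 difference of 2.81 (SE 0.815, limma adjusted p = 0.101), and Gch1, which makes the cofactor of Tph1, of 1.47 (SE 0.386, limma adjusted p = 0.0867). Maob, the amine-degrading monoamine oxidase B, was lower in every noggin library: 0.247, 3.61 and 0 FPKM across noggin replicates 1 to 3 against 7.71 to 11.7 FPKM in controls (log2 difference -2.63, SE 0.582, limma adjusted p = 0.0647). Mboat4, the enzyme that acylates ghrelin, did not move with Ghrl in size. It was at 1.13 to 1.32 FPKM in controls and at 2.15, 2.74 and 0 FPKM across noggin replicates 1 to 3. It was picked once its values were known.

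Of 17 enteroendocrine transcription factors 3 could be tested and limma called 0. At an unadjusted p under 0.05, 1 was higher, beside 1677 of all 10644 tested genes. Insm1, a zinc finger factor of endocrine cells, was at 0.306 to 0.746 FPKM in controls and at 1.21, 4.15 and 2.98 FPKM across noggin replicates 1 to 3, without overlap (log2 difference 1.26, SE 0.381, limma adjusted p = 0.107). It passed the filter only through the noggin libraries, which fixes its direction. Nkx6-3, a factor of G and D cells, had 0.67 (SE 0.618), and Isl1 had -0.30 (SE 0.387). As with the members, noggin replicate 2 was the highest noggin library for 16 of the 21 tested companion genes, and control replicate 3 the highest control for 16.

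**Figure D4:**
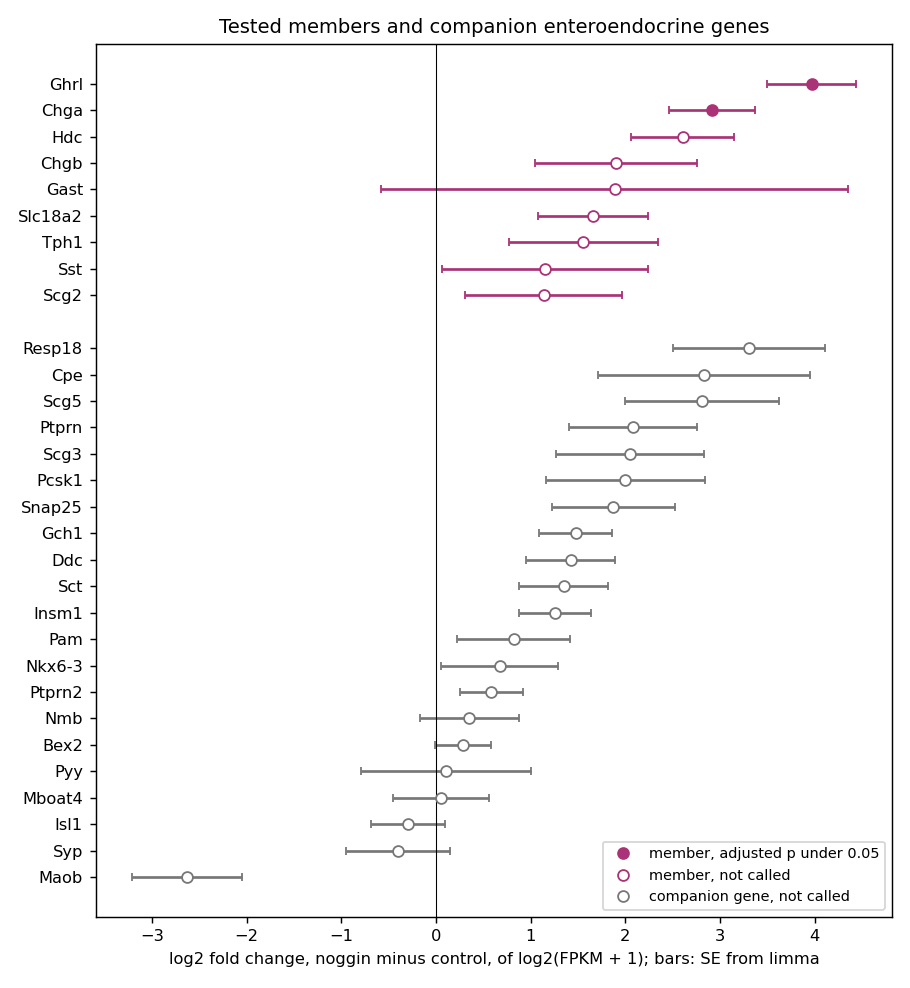
Log2 differences, noggin minus control, with their SE from limma for the 9 tested members (purple) and 21 tested companion genes (grey); filled points have an adjusted p under 0.05. Ghrl at 3.97 and Chga at 2.91 are the filled points, Gast has the widest bar (SE 2.467), and Maob at -2.63 is the lowest companion gene.

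Receptors for these hormones and amines were measured as well, since parietal cells receive their signals. Of 13 genes 5 could be tested and limma called 0. At an unadjusted p under 0.05, 0 were higher and 1 lower, beside 1677 and 1162 of all 10644 tested genes. Sstr2, the somatostatin receptor of parietal cells, was at 34.5, 37.4 and 39.6 FPKM across control replicates 1 to 3 and at 11.1, 23.0 and 20.6 FPKM across noggin replicates 1 to 3. These groups did not overlap, but the log2 difference of -1.05 (SE 0.290) did not pass (limma adjusted p = 0.0951). The histamine receptor Hrh2 had a log2 difference of -0.48 (SE 0.299), the gastrin receptor Cckbr of 0.52 (SE 0.369) and the cholecystokinin receptor Cckar of 0.35 (SE 0.323). The ghrelin receptor Ghsr, picked outside the naming rule, was at 0 to 0.0149 FPKM.

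Markers of some other cells also differed between the groups, and their order within a group was not always that of the members. The mucous neck cell sum was lowest in control replicate 3 (2456 FPKM), the highest control for 9 of 10 members. It was highest in noggin replicate 1 (25864 FPKM), the lowest noggin library for 9 of 10 members. Most of this sum was Tff2, at 1581 FPKM in control replicate 3 and 19699 FPKM in noggin replicate 1. Tff2, Muc6 and Agr2 were lowest among controls in control replicate 3, but Gkn3 and Aqp5 were highest there. Tff2, Muc6, Agr2, Gkn3 and Aqp5 were each highest in noggin replicate 1. All 5 tested mucous neck cell markers rose, and 5 of 11 parietal cell markers fell, with summed levels of 2456 to 3363 against 10766 to 25864 FPKM for the first and 34786 to 41832 against 30280 to 34258 FPKM for the second (controls first). Without the filter limma called 0 of 6 neck and 0 of 11 parietal markers (6 higher and 7 lower at an unadjusted p under 0.05), and with the length correction 3 of 5 and 0 of 11. Over all 19818 genes without the filter, 1863 were higher and 1396 lower at that unadjusted p. Leukocyte markers summed to 2.38 to 2.83 FPKM in controls and 18.2 to 96.9 FPKM in noggin libraries, and 12 of the 15 genes were under the filter. The other 3 passed it only through noggin libraries, which fixes their direction, and limma called 0 of them (3 higher at an unadjusted p under 0.05). Chief cell markers summed to 60942 to 112019 FPKM in controls and 131323 to 357848 FPKM in noggin libraries, with 0 of 6 called by limma (1 higher at an unadjusted p under 0.05), and pit cell markers overlapped in their sums. In the filtered table, 1677 of all 10644 tested genes were higher and 1162 lower at that unadjusted p. Enteric neurons also make granins. The 12 enteric neuron and glia markers summed to 2.27 to 6.39 FPKM in controls and 8.31 to 18.4 FPKM in noggin libraries, mostly Tubb3, with 0 of 1 tested gene called by limma (1 higher at an unadjusted p under 0.05). Prph was at 0 in all libraries and Elavl4 reached 0.340 FPKM. Stromal markers summed to 1.04 to 7.32 FPKM, with Cdh5 at 0 in all libraries. The part of cell mixture in the results above was not tested.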

How the data were processed

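The members and gene lists were chosen with earlier results of these data known. Per the labels' protocols, DNase-treated total RNA (1 ng or more) went into a SMART-Seq low-input kit, which amplifies cDNA, and was sequenced as 50 base single reads. The authors deposited FPKM for each library. Per the submitters' processing notes the build was mm10, with bcl2fastq and FastQC 0.10.0. For aligner, quantifier, annotation and strandedness: not given in the sources used here. Because the values are FPKM, no test on counts was used, and precision is limited by the 3 libraries per group.

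Values were transformed to log2(FPKM + 1). The 10644 genes that reached 1 FPKM in 3 or more libraries were tested with limma 3.58.1 (R 4.3.3), using its trend option, group as the only term, two-sided, and Benjamini-Hochberg adjustment over all tested genes. The test was run on simulated data first. Coordinates and transcript lengths (median over basic transcripts) are from GENCODE M21, whose GRCm38 assembly is mm10. By symbol, 20911 genes matched, by a RefSeq synonym 1915, and 458 did not match. Sequences are from RefSeq for GRCm38.p6, with windows for 10 of 10 members. Named genes are the members, the called and then up to 4 genes by unadjusted p in each companion and receptor list, and the 5 genes most correlated with Ghrl and with Gast; others are said to be outside this rule, except markers given as list values. Alternatives were other pseudocounts, filters and scalings, no trend, a length correction, a replicate block and leaving out each library.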

Additional observations from a re-analysis of the deposited data

How the results depend on the processing

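Of the 9 tested members, 8 kept a positive log2 difference under every alternative in which they were tested (14 or 15 each), and Sst turned to -0.10 without noggin replicate 3 (range without a library -0.10 to 2.46). The number of members called higher was 2, with 1 at a pseudocount of 0.01, without the trend or with the length correction, 0 without a filter, 3 with the filter at 5 FPKM (Hdc joined, adjusted p = 0.0470) or quantile normalization, and 0 to 3 when a library was left out; 0 were called lower in any setting. Companion genes called higher went from 0 to 1 with quantile normalization and 0 to 2 without a library, and those called lower from 0 to 1 with rescaling to the same total or quantile normalization and 0 to 1 without a library. Over all genes, 186 higher and 74 lower became 85 and 26 with a pseudocount of 0.1, 72 and 21 with 0.01, 8 and 4 without a filter, 66 and 17 without the trend, 81 and 24 with the length correction, 130 and 820 with rescaling and 243 and 231 with quantile normalization. They ranged from 4 to 1187 higher and 5 to 825 lower without a library. Rescaling moved the median of all genes to -0.63 and that of the tested members to 1.18. The causes were not tested.

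Whether replicate numbers pair the libraries was not settled. Deviations from the group means over all tested genes correlated at 0.105, -0.141 and 0.005 for numbers 1, 2 and 3. Between unlike numbers they ran from -0.129 to 0.120. With 3 libraries per group these values cannot exclude a pairing. A replicate block lowered the SE of each tested member, in Chga from 0.451 to 0.259 and in Gast from 2.467 to 1.339. With a replicate block 128 genes were higher and 32 lower, 3 members were higher (Hdc joined, adjusted p = 0.0217), and among companion genes 2 were higher (Resp18 and Scg5) and 1 lower (Maob).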

Other observations

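The TGACG letters were also counted before the companion enteroendocrine genes, as a description. Windows were found for 41 of the 54 genes, and 16 of them (39.0%) held TGACG on either strand, beside 17.8% of all RefSeq windows. The full element TGACGTCA lay before 2 of the 41, Pcsk1, a prohormone convertase, and Pax6, an endocrine transcription factor. The CAGATG letters lay before 8 of the 41 (19.5%), among them Cck, Gcg and Sct.

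Pcsk2, a prohormone convertase picked once its values were known, was at 36.2 FPKM in noggin replicate 2. Noggin replicates 1 and 3 held 0.147 and 0.107 FPKM of it, and controls 0.513 to 4.04 FPKM. Noggin replicate 3 held 14693 FPKM of Gast but listed Cck, Pyy, Nmb and Mboat4 at 0.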
